A study of Canis lupus familiaris with 5 samples.

Results

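Integrin and laminin chain genes encode the receptors and the basement membrane network that hold vessel wall cells in place. The set comprised every feature whose name, without its numeric suffix, begins with ITGA, ITGB, LAMA, LAMB or LAMC and a digit, or is ITGAV, ITGAL, ITGAM, ITGAX, ITGAE or ITGAD. This rule took 42 of 35531 named features, of which 41 are described. The 41 represented 26 integrin chain genes, with ITGAX split over 2 features, 3 proteins named for binding to an integrin tail, and laminin chain genes. In the analysed nuclei, 32 of the 41 had at least 100 unique transcript molecules (UMIs), 9 had 0 to 88, and 78236 UMIs were counted over the 41. No sequences or coordinates are printed.

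An integrin is a pair of one alpha and one beta chain in the cell membrane that ties collagen, laminin, fibronectin or a counter-receptor on another cell to the actin cytoskeleton. A laminin is a cross-shaped trimer of one alpha, one beta and one gamma chain, and endothelial cells and smooth muscle cells each rest on a basement membrane built around such trimers. Laminins with LAMA4 or LAMA5 are typical of vessels, those with LAMA2 of muscle and stroma, and LAMA3 and LAMB3 are best known from epithelium.

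The nuclei came from cephalic vein, a superficial forelimb vein, of 2 male mongrel dogs of 25 kg, kept under pentothal and isoflurane anaesthesia for surgery. Control vein was an undistended segment (n = 2 libraries, dogs 1 and 2). Distended vein (n = 2, dogs 1 and 2) had been filled under pressure with saline containing papaverine, a vasodilator, and bivalirudin, a thrombin inhibitor, during a harvest of about 30 minutes. The graft (n = 1, dog 1) was such a vein 24 h after it had been sewn into the carotid artery under systemic bivalirudin. No allele or transgene is named in the labels. With 1 graft, its comparisons have no graft replicate, and the test takes its error from the other 4 libraries.

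The libraries held 765 and 1034 control, 2108 and 241 distended and 2705 grafted nuclei after filtering, with 388133 to 2487760 UMIs outside the graft and 11236086 in it. Median detected genes per nucleus were 241 to 444 in control and distended vein and 1562 in the graft. The features LOC119877774 and LOC119877775 took 65.6% to 70.8% of control, 27.9% to 39.6% of distended and 2.98% of grafted UMIs. Clusters were named from marker lists that contained no integrin or laminin, and those genes were held out of the clustering. Endothelial-like nuclei numbered 658, 507, 603, 170 and 1040, and fibroblast-like nuclei 47, 383, 1210, 50 and 812, in the controls of dogs 1 and 2, the distended veins of dogs 1 and 2 and the graft. Sets of 5 values always follow that library order. Only 4 barcodes occurred in more than 1 library.

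The same class was made of different clusters in different libraries. Cluster 0 held 556 of the endothelial-like nuclei of control dog 1, cluster 6 held 427 of control dog 2 and 416 of distended dog 1, cluster 1 held 99 of distended dog 2, and cluster 8 held 972 of the graft. Among fibroblast-like nuclei, cluster 3 held 47, 334 and 645 nuclei of control dog 1, control dog 2 and distended dog 1, cluster 5 held 565 of distended dog 1, and cluster 11 held 46 of distended dog 2 and 807 of the graft. Distended dog 2 thus shared its main fibroblast cluster with the graft, and its endothelial-like nuclei included 37 in cluster 8. Summed endothelial markers within endothelial-like nuclei stood at 14756 to 15912 UPM (UMIs per 1000000 UMIs, leaving out the pair of dominant features) in control vein and distended dog 1, 10066 UPM in distended dog 2 and 8910 UPM in the graft. Fibroblast markers in fibroblast-like nuclei stood at 10248 to 13544 in the same 3 libraries, 5226 in distended dog 2 and 2942 in the graft. The part of depth, cluster makeup and the dominant features in the results was not tested beyond the alternatives given with them.

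Levels across libraries are TMM-normalised counts per 1000000 (CPM) of whole-vein or class sums. An UMI count of 3 equals 1.11 to 5.35 CPM in the whole-vein sums outside the graft and 0.137 CPM in the graft, so low values in control vein rest on few molecules. In whole vein, fewer cells of a type and less RNA per cell cannot be told apart. Of the 41 features, 34 passed the filter on low counts in whole vein, 25 in endothelial-like and 18 in fibroblast-like nuclei. Features pass it only where enough counts are present, so each count of called genes refers to those tested.

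In whole vein none of the 34 integrin and laminin features was called at an adjusted p under 0.05 in any of the 3 comparisons, with edgeR or with DESeq2. DESeq2 was run on every feature with any UMI, without the filter that left the 34, so its background covers more genes. The background was 0% of 13159 genes with edgeR, and with DESeq2 0, 104 and 33 of 26758 genes (0%, 0.389% and 0.123%) in distended against control, grafted against control and grafted against distended vein. At an unadjusted edgeR p under 0.05, 1 of 34 was higher in distended than control vein (1.41% of all genes past the same limit in either direction). In grafted against control vein, 3 were higher and 3 lower (8.86% of all genes), and in grafted against distended vein 1 was higher and 3 lower (5.55%). Median log2 fold changes of the 34 were 0.01, 0.16 and -0.29 in those comparisons, against 0.08, 0.12 and 0.01 for all genes tested. The last pair of comparisons share the graft, and the first pair share the controls.

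Leukocyte integrins let blood cells grip the vessel wall and each other. ITGAM and ITGA4 were highest in myeloid-like nuclei of both distended dog 1 and the graft, whereas ITGAE in the graft and ITGB7 in distended dog 1 were not. ITGAM, the alpha chain of the complement receptor on neutrophils and macrophages, stood at 1.09, 15.1, 4.07, 5.35 and 20.6 CPM in whole vein. ITGB2, the beta chain that ITGAM, ITGAL, ITGAX and ITGAD share, stood at 1.09, 16.8, 1.48, 1.78 and 12.1 CPM. ITGA4, the chain that binds VCAM1 and fibronectin, stood at 4.35, 16.8, 6.66, 5.35 and 13.5 CPM. In all 3 the graft lay nearer control dog 2 (12.1 to 20.6 against 15.1 to 16.8 CPM) than control dog 1, which lay far lower. Myeloid-like nuclei numbered 10, 64, 102, 7 and 495, or 1.31%, 6.19%, 4.84%, 2.90% and 18.3% of the nuclei of each library.

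Within classes, ITGAM stood at 352 UPM in myeloid-like nuclei of control dog 2 (9 UMIs), 209.6 in those of distended dog 1 (11 UMIs) and 283 in those of the graft (339 UMIs). In endothelial-like nuclei of the graft it was 13.3. ITGA4 stood at 352, 209.6 and 184 in the same 3 myeloid-like sums, and ITGB2 at 313, 76.2 and 155. Within myeloid-like nuclei, none of the 3 genes was thus higher in the graft than in control dog 2. The makeup of the class differed, since cluster 7, led by ARHGAP15, PRKCB, SYK and IKZF1 among others, held all 495 graft nuclei, whereas 15 nuclei of control dog 2 and 68 of distended dog 1 lay in the TIMD4- and CD163-marked cluster 13. Over the class, the 30 myeloid markers summed to 16440 UPM in control dog 2 (22 detected), 13167 in distended dog 1 (25 detected) and 4666 in the graft (28 detected). Endothelial markers in the same graft nuclei summed to 2559 UPM, against 626 and 286 in the other 2 libraries, and their part in the myeloid-like values was not tested.

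ITGAL, the alpha chain of LFA-1, stood at 2.18, 8.41, 0.370, 0 and 5.54 CPM in whole vein, and ITGB7, the gut-homing beta chain, at 7.62, 15.1, 11.8, 3.57 and 5.76 CPM. ITGAE, which pairs with ITGB7 on lymphocytes that bind E-cadherin, stood at 4.35, 3.37, 3.70, 3.57 and 7.50 CPM. ITGAL and ITGB7 were highest in myeloid-like nuclei of the graft (80.1 and 70.9 UPM), whereas ITGAE was not (25.6 in fibroblast-like against 15.9 in myeloid-like nuclei). In distended dog 1, ITGB7 was instead counted mainly in fibroblast-like nuclei (29 of 32 UMIs). The ITGAX features, for the alpha chain of dendritic cells, held 5 and 88 UMIs in all, 81 of the 88 in the graft. Reads could be divided between those copies, so the ITGAX level is uncertain. ITGAD had 0 UMIs in every library, at which a floor of 3 UMIs allows up to 0.137 CPM in the graft.

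**Figure D1:**
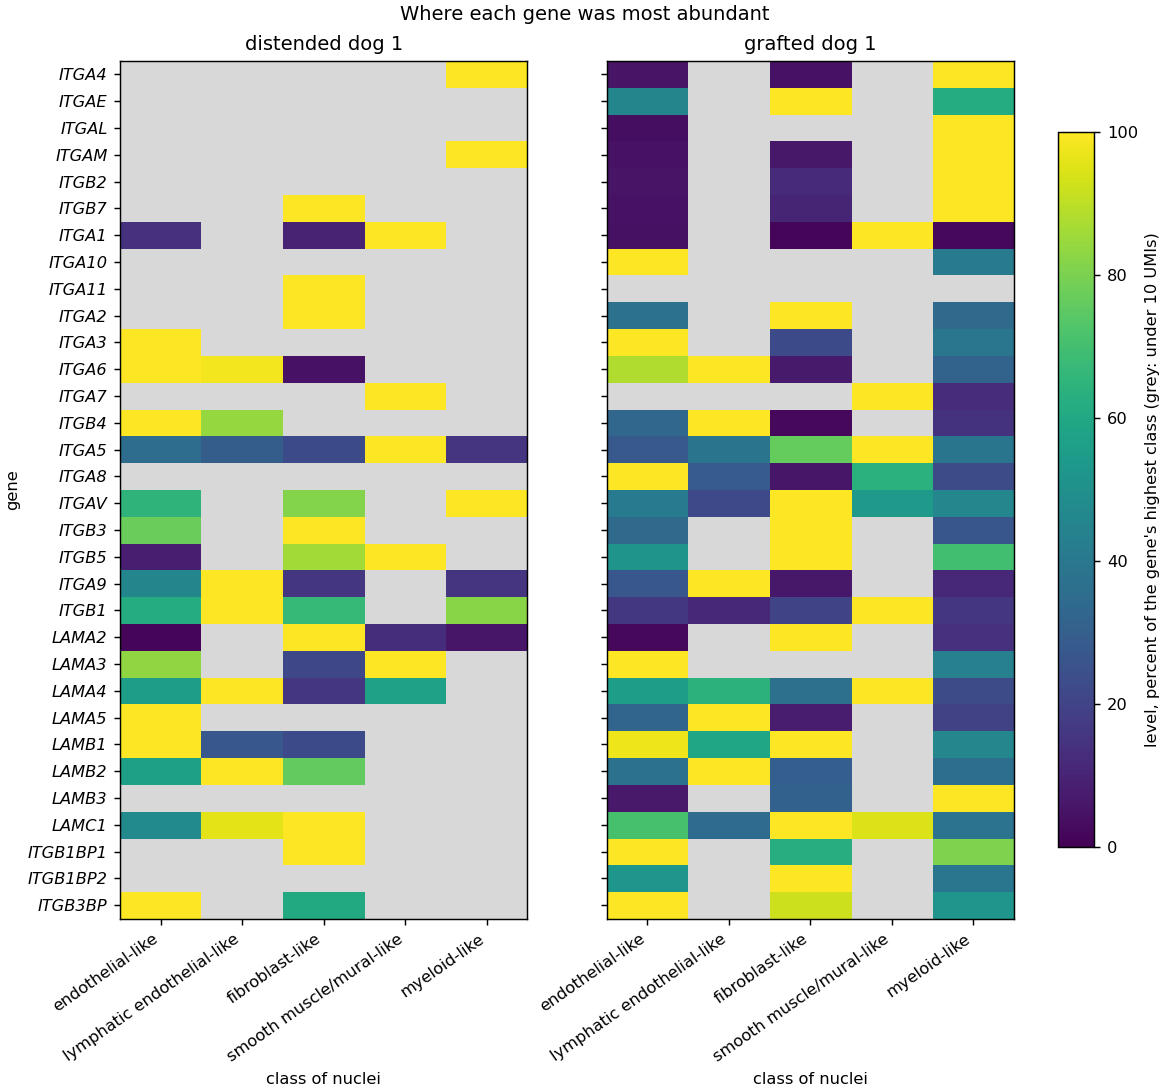
Level of each integrin or laminin gene with at least 100 UMIs, in the named classes of nuclei of distended dog 1 and grafted dog 1, as percent of that gene's highest named class in the library. Columns are classes, rows are genes by role, and grey marks sums under 10 UMIs. In both libraries, ITGAM and ITGA4 are brightest in myeloid-like, ITGA1 in smooth muscle and mural-like, ITGA9 in lymphatic endothelial-like and LAMA2 in fibroblast-like nuclei.

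The class map compares both libraries that had at least 20 nuclei of every named class. In distended dog 1, 25 genes reached 10 UMIs in some class, and for 10 of them the exact 95% Poisson interval of the highest class lay above that of the next. In the graft this held for 13 of 31. Such intervals cover counting error only. Among classes with at least 10 UMIs of the gene, the highest was the same in both libraries for ITGA4 and ITGAM (myeloid-like), ITGA1, ITGA5 and ITGA7 (smooth muscle and mural-like), ITGA9 and LAMB2 (lymphatic endothelial-like), LAMA2, LAMC1, ITGA2 and ITGB3 (fibroblast-like) and ITGA3 and ITGB3BP (endothelial-like). ITGA3 in both libraries and ITGB3BP in distended dog 1 had a higher level in a class with fewer UMIs.

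The collagen receptors bind fibrillar and basement membrane collagens together with ITGB1. ITGA1, which favours collagen IV, stood at 139, 53.9, 55.9, 66.0 and 79.4 CPM in whole vein. Its level in smooth muscle and mural-like nuclei was 1409 UPM in control dog 1, 826 in distended dog 1 and 4788 in the graft (36, 24 and 326 UMIs in 40, 43 and 36 nuclei). Those nuclei came from cluster 9 in control and distended vein and from cluster 12, led by TNC, in the graft, where summed smooth muscle markers were 5068 UPM, against 24884 in control dog 1 and 23520 in distended dog 1. Among these 3 sums, ITGA1 was highest where smooth muscle markers were lowest, and with 1 graft this carries no test.

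ITGA2, the platelet and epithelial collagen receptor, stood at 2.18, 5.05, 20.4, 12.5 and 8.42 CPM in whole vein. Both distended libraries lay above both controls (log2 fold change 2.27, SE 1.00, edgeR unadjusted p 0.0482 and adjusted p 1.0), and the graft lay between them. The controls held 2 and 3 UMIs. Most ITGA2 in distended dog 1 was in fibroblast-like nuclei (49 of 55 UMIs). ITGA10, a cartilage collagen receptor, stood at 8.71, 1.68, 2.59, 7.14 and 6.95 CPM, with overlapping groups.

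ITGA11, the fibroblast receptor for collagen I, was the collagen receptor called in fibroblast-like nuclei. Its fibroblast-like sums were 0, 46, 381, 0 and 4 UMIs, or 0, 252, 287, 0 and 1.02 CPM. Control dog 2 and distended dog 1 were high and the other 3 libraries, one of each group, had 0 to 4 UMIs. The graft was called lower than control (log2 fold change -7.10, SE 1.72, edgeR unadjusted p 3.80e-05 and adjusted p 0.00976) and lower than distended vein (log2 fold change -7.14, SE 1.72, edgeR unadjusted p 3.17e-05 and adjusted p 0.00671). The ratio of pooled counts was 217-fold lower than control (95% counting interval 79.3 to 831) and 268-fold lower than distended vein (104 to 989). Each call rested on 1 library. Without control dog 2 the fitted value against control was 3.58 (adjusted p = 0.900), below the 6.51 that was the median of all genes in that fit. Without distended dog 1 the fitted value against distended vein was 3.25 (adjusted p = 1.0; median of all genes 0.22). In both fits the library left for comparison had 0 ITGA11 UMIs, so these values give no direction. With the dog as a block the adjusted p values were 0.366 and 0.0592, and with DESeq2 0.744 and 1.0. In control dog 1 and distended dog 2, 3 UMIs equal 119 and 42.7 CPM, so the 0 in control dog 1, from 47 nuclei, allows up to nearly the mean of its group (126 ± 178 CPM, SD, n = 2).

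By cluster, ITGA11 was concentrated in cluster 5 of fibroblast-like nuclei, at 794 UPM (95% interval 712 to 883), with FNDC1, COL28A1 and ADAMTS5 also among its leading genes. In cluster 3 it stood at 192 (154 to 237), and in graft nuclei of cluster 11 at 1.71 (0.353 to 5.01, 3 UMIs). Cluster 5 held 43 nuclei of control dog 2, 565 of distended dog 1 and 0 of the other libraries. The called difference and the presence of that cluster moved together, and whether cells of this kind were missing or their transcripts were fewer was not tested. In whole vein, ITGA11 stood at 5.44, 89.2, 145, 0 and 0.320 CPM, lower in the graft than in either control (log2 fold change -7.08, SE 2.78, edgeR unadjusted p 0.0304 and adjusted p 0.553). The difference from distended vein had a log2 fold change of -7.76 (SE 2.86), an edgeR unadjusted p of 0.0230 and an adjusted p of 0.888.

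The alpha chains that bind laminin, and ITGB4, are known from basement membrane contacts. ITGA6, which pairs with ITGB1 or ITGB4, stood at 54.8, 45.9, 193, 119 and 109 CPM in endothelial-like nuclei. Both distended libraries and the graft lay above both controls, and distended against control had a log2 fold change of 1.63 (SE 0.60, edgeR unadjusted p 0.0170, adjusted p 1.0). ITGB4, the partner of ITGA6 in hemidesmosomes, stood at 126, 321, 206, 142 and 62.8 CPM in those nuclei, lowest in the graft. Of 1413 graft UMIs, 597 were in endothelial-like, 48 in lymphatic endothelial-like and 682 in the unnamed cluster 14, whose leading genes were mostly ribosomal and included ACKR1. ITGA3 stood at 22.1, 21.4, 13.6, 43.5 and 13.1 CPM in endothelial-like nuclei, with distended dog 2 highest and the others between 13.1 and 22.1. ITGA7, the muscle laminin receptor, stood at 3.27, 3.37, 10.4, 0 and 3.29 CPM in whole vein, and its highest class was smooth muscle and mural-like in distended dog 1 (448 UPM, 13 UMIs) and the graft (206, 14 UMIs).

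In endothelial-like nuclei, 1 of 25 integrin and laminin features was called in grafted against control vein (0.734% of 10769 genes called), and 1 of 25 in grafted against distended vein (0.279%). The gene was ITGA8 in both, higher in the graft. With the dog as a block, 2 were called against control, ITGA8 and LAMA3, in a fit that called 656 of all genes (6.09%). None of 25 was called in distended against control vein (0% of genes), with edgeR or DESeq2, and 1 had an unadjusted p under 0.05 (2.79% of genes). At that limit, 3 were higher and 2 lower in grafted against control vein (17.1% of genes), and 1 higher and 3 lower in grafted against distended vein (9.68%). Median log2 fold changes over the 25 were 0.28, 0.38 and -0.14 for distended against control, grafted against control and grafted against distended vein, against -0.01, 0.08 and 0.06 over all genes tested.

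ITGA8, which pairs with ITGB1 to bind nephronectin and fibronectin and is otherwise known from smooth muscle, rose in endothelial-like nuclei of the graft. Its sums were 11, 1, 6, 2 and 1456 UMIs, or 12.8, 3.06, 5.81, 5.80 and 153 CPM. Control averaged 7.94 ± 6.90 and distended vein 5.81 ± 0.00969 CPM (SD, n = 2 each), and the graft stood at 153 (95% counting interval 145 to 161). The distended SD came from 6 and 2 UMIs, and 3 UMIs equal 8.70 CPM in distended dog 2, so it understates the counting error. The graft lay far above all 4 other libraries, which overlapped one another. Against control the log2 fold change was 4.06 (SE 0.77, edgeR unadjusted p 1.45e-04, adjusted p 0.0364), and against distended vein the log2 fold change was 4.71 (SE 0.80, edgeR unadjusted p 5.63e-05, adjusted p 0.0455). Pooled counts gave 15.1-fold over control (95% counting interval 8.63 to 29.3), 12-fold without control dog 2 and 50.1-fold (8.97 to 1979) without control dog 1, whose removal leaves 1 control UMI. Over distended vein the ratio was 26.4-fold (13.3 to 61.2).

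Every alternative kept the sign of both ITGA8 differences. The calls were lost without control dog 1 (adjusted p = 0.427 and 0.562), without control dog 2 (0.503 and 0.605) and with nuclei of at least 200 genes (0.0803 and 0.105), and the second also without distended dog 1 (0.0538). Cluster 8 carried the signal, at 330 UPM in 972 graft nuclei (313 to 347). The 43 nuclei of control and distended vein in the same cluster had 0 ITGA8 UMIs, an exact upper limit of 41.9 UPM, but 37 of them came from distended dog 2, 5 from distended dog 1 and 1 from control dog 1. Endothelial-like nuclei held 1456 of the 1759 graft UMIs of ITGA8. In smooth muscle and mural-like nuclei, ITGA8 stood at 206 UPM in the graft (14 UMIs). Smooth muscle markers within endothelial-like nuclei summed to 40.5 to 72.1 UPM outside the graft (4 to 8 of 16 detected) and 23.0 in it (14 detected), and their part in the ITGA8 difference was not tested. Whole-vein ITGA8 was 12, 11.8, 4.07, 3.57 and 80.5 CPM, with a log2 fold change of 2.76 (SE 0.82, edgeR unadjusted p 0.00794, adjusted p 0.550) against control, and against distended vein a log2 fold change of 4.36 (SE 0.87, edgeR unadjusted p 6.47e-04, adjusted p 0.756).

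**Figure D2:**
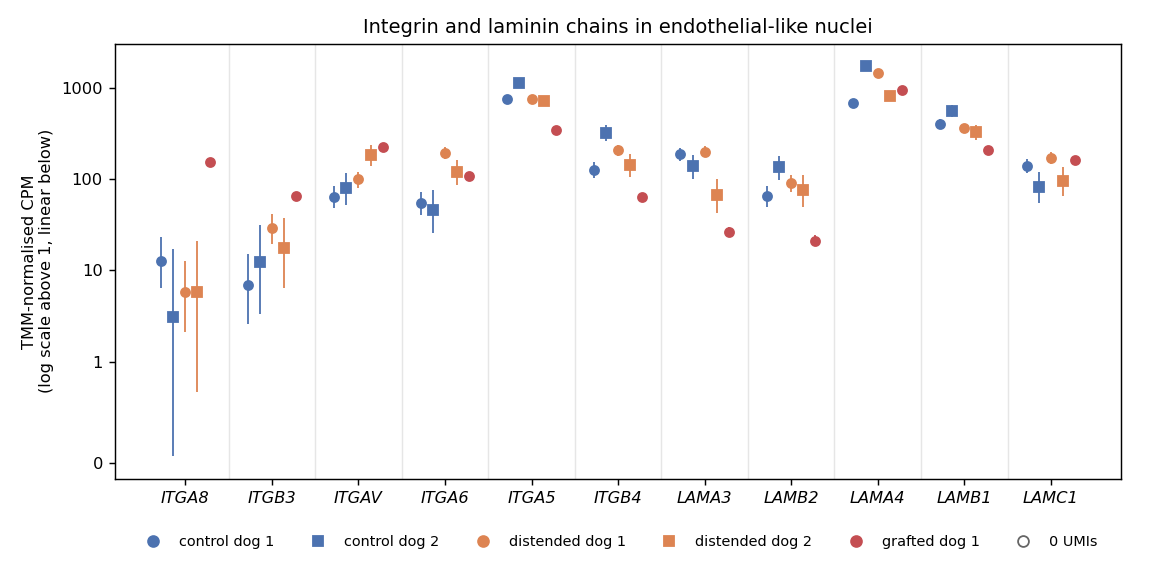
TMM-normalised CPM of 11 integrin and laminin genes in endothelial-like nuclei of each library, on a log axis that is linear under 1, with exact 95% Poisson intervals and open symbols at 0 UMIs. ITGA8 in the graft stands at 153 CPM, above all other libraries, while LAMA3 and LAMB2 in the graft stand at 26.4 and 21.1 CPM below them.

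ITGAV and ITGB3 form the vitronectin receptor, which also binds fibronectin, fibrinogen and thrombospondin. ITGB3 stood at 6.99, 12.2, 29.1, 17.4 and 64.4 CPM in endothelial-like nuclei, lowest in the controls, higher in both distended libraries and highest in the graft. ITGAV stood at 64.1, 79.5, 98.8, 183 and 222 CPM and followed the same order. In grafted against control vein neither was called (ITGB3: log2 fold change 2.84, SE 0.77, edgeR unadjusted p 0.00273 and adjusted p 0.102). For ITGAV in the same comparison the log2 fold change was 1.64 (SE 0.70), the edgeR unadjusted p 0.0350 and the adjusted p 0.254. ITGB3 passed the threshold without either distended library (adjusted p = 0.0222 and 0.0196), while ITGAV did so under none of the alternatives run for it. Whole-vein sums gave the same signs, with 4 libraries below the graft for each gene: ITGB3 stood at 6.53, 23.6, 33.3, 23.2 and 70.2 CPM and ITGAV at 67.5, 75.7, 115, 199.9 and 270.4 CPM, with unadjusted edgeR p values of 0.0356 (log2 fold change 2.26, SE 0.92) and 0.0390 (1.92, SE 0.80) and adjusted p values of 0.554 and 0.555 against control.

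Fibroblast-like nuclei had ITGAV at 0, 87.5, 134, 484 and 514 CPM. The graft and distended dog 2 stood together at about the same level and the controls and distended dog 1 lay lower, which is also how the nuclei were divided between cluster 11 and clusters 3 and 5. In cluster 11, ITGAV stood at 1150 UPM (1100.4 to 1201) in graft nuclei and at 1221 (841 to 1715) in the 52 nuclei of control and distended vein. Clusters 3 and 5 held 206 and 238. In the fibroblast-like fit, grafted against control had a log2 fold change of 3.1 (SE 1.27, edgeR unadjusted p 0.0147, adjusted p 0.240), and distended against control a log2 fold change of 2.32 (SE 1.15, edgeR unadjusted p 0.0442, adjusted p 1.0). ITGB3 in fibroblast-like nuclei stood at 0, 54.7, 40.7, 85.3 and 175 CPM, highest in the graft, with an edgeR unadjusted p over 0.05 in every comparison.

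ITGA5, the fibronectin receptor chain, was detected in every class. Its endothelial-like levels were 758, 1129, 758, 722 and 342 CPM, lowest in the graft, whereas its fibroblast-like levels were 238, 957, 514, 1152 and 883 CPM, with the graft inside the range of the other libraries. Among classes, ITGA5 was highest in smooth muscle and mural-like nuclei both of distended dog 1 (3960.2 UPM) and of the graft (2585 UPM). ITGB5, a further partner of ITGAV, stood at 11.7, 15.3, 21.3, 8.70 and 25.0 CPM in endothelial-like and 317, 153, 239.9, 85.3 and 45.6 CPM in fibroblast-like nuclei. The graft was the highest endothelial and the lowest fibroblast value, and neither difference reached an unadjusted p of 0.05. The remaining chains of this group were sparse: ITGB8, ITGB6 and ITGA2B held 76, 27 and 21 UMIs in all.

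ITGA9, which binds tenascin C, VCAM1 and SVEP1 and is needed for lymphatic valves, stood at 165, 177, 249, 111 and 142 CPM in whole vein, with the graft inside the range of the other libraries. Lymphatic endothelial-like nuclei had 853, 1381 and 1636 UPM in control dog 2, distended dog 1 and the graft, against 405, 632 and 444 in endothelial-like nuclei of the same libraries. In all 3 the lymphatic value was higher. ITGB1, the beta chain shared by most of these receptors, stood at 160.0, 67.3, 106, 125 and 164 CPM in whole vein, 161, 45.9, 92.0, 110.2 and 123 in endothelial-like and 0, 98.5, 108, 85.3 and 146 in fibroblast-like sums, so that the graft was the highest value in whole-vein and fibroblast-like sums and lay inside the range of the controls in endothelial-like ones.

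Of the laminin alpha chains, LAMA2 was highest in fibroblast-like nuclei of both distended dog 1 and the graft, while LAMA3, LAMA4 and LAMA5 changed their highest class between those libraries (among classes with at least 10 UMIs of the gene). LAMA4, the main alpha chain of endothelial basement membrane, stood at 680.4, 1716, 1447, 800.4 and 947 CPM in endothelial-like nuclei, with the graft inside the range of the controls. LAMA5, the other alpha chain typical of vessels, stood at 12.8, 39.8, 38.8, 26.1 and 13 CPM, also with the graft inside that range. LAMA2, the chain of muscle and stromal laminin, stood at 1388, 1554, 1983, 369.8 and 181 CPM in fibroblast-like nuclei. Both controls and distended dog 1 were high, and distended dog 2 and the graft were low. Grafted against control had a log2 fold change of -3.03 (SE 1.5, edgeR unadjusted p 0.0444, adjusted p 0.402). In cluster 11 the LAMA2 level was 962 UPM in control and distended nuclei (629 to 1410, 26 UMIs) and 406 (376 to 437) in graft nuclei, against 4080 (3896 to 4270.4) in cluster 3. Fibroblast-like nuclei held 2629 of the 2691 LAMA2 UMIs of distended dog 1 and 710 of the 831 of the graft. The 39 UMIs in endothelial-like nuclei of the graft gave 4.10 CPM, lower than in either distended library (log2 fold change -2.48, SE 0.97, edgeR unadjusted p 0.0246 and adjusted p 0.406).

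LAMA3, an alpha chain known from epithelial basement membrane, had its lowest value in the graft in both classes. In endothelial-like nuclei it stood at 186, 138, 199, 66.7 and 26.4 CPM, with the graft below all other libraries and distended dog 2 next. Against control the log2 fold change was -2.62 (SE 0.88, edgeR unadjusted p 0.0107, adjusted p 0.165), and with the dog as a block the adjusted p was 0.0472. Against distended vein the log2 fold change was -2.35 (SE 0.87, edgeR unadjusted p 0.0178, adjusted p 0.367). Fibroblast-like sums held 2, 3, 74, 2 and 7 UMIs of LAMA3, or 79.3, 16.4, 55.8, 28.4 and 1.78 CPM. In those sums the fall from distended vein was called (log2 fold change -4.64, SE 1.36, edgeR unadjusted p 6.17e-04 and adjusted p 0.0329), at a pooled ratio of 30.5-fold (95% counting interval 14.1 to 78.5). Without distended dog 1, which held 74 of the distended UMIs, LAMA3 had too few UMIs to be tested. The pooled ratio of 16-fold (1.62 to 83.8) then rested on 2 distended UMIs. For the fall from distended vein, the adjusted p with the dog as a block was 0.340, with DESeq2 0.576, and without the dominant features in the sums 0.0772. Against control, where 5 UMIs were counted, the log2 fold change was -3.96 (SE 1.54, edgeR unadjusted p 0.0101, adjusted p 0.196). Whole-vein LAMA3 stood at 178, 85.8, 109.9, 46.4 and 14.8 CPM, lowest in the graft. Its log2 fold change was -3.16 (SE 1.02, edgeR unadjusted p 0.0123, adjusted p 0.550) against control and -2.42 (SE 0.98, edgeR unadjusted p 0.0347, adjusted p 0.898) against distended vein.

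Of the laminin beta chains, LAMB2 stood at 65.2, 135, 90.1, 75.4 and 21.1 CPM in endothelial-like and 79.3, 159, 130.5, 14.2 and 15.8 CPM in fibroblast-like nuclei. In endothelial-like nuclei the graft was below all 4 other libraries, with a log2 fold change of -2.22 (SE 0.78, edgeR unadjusted p 0.0138, adjusted p 0.179) against control and a log2 fold change of -1.97 (SE 0.77, edgeR unadjusted p 0.0233, adjusted p 0.403) against distended vein. In fibroblast-like nuclei the graft and distended dog 2 had the lowest levels, and grafted against control had a log2 fold change of -3.03 (SE 1.33, edgeR unadjusted p 0.0222, adjusted p 0.288). There 3 UMIs equal 42.7 CPM in distended dog 2 and 119 CPM in control dog 1. Both levels lay under these floors, so their order is not set. Whole-vein values were 70.7, 138, 115, 50.0 and 17.3 CPM, with unadjusted edgeR p values of 0.0252 against control (log2 fold change -2.59, SE 0.97, adjusted p 0.553) and 0.0403 against distended vein (-2.27, SE 0.95, adjusted p 0.898).

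LAMB1, the common beta chain of endothelial laminin, stood at 404, 559.8, 359, 328 and 209.8 CPM in endothelial-like nuclei, lowest in the graft, and at 39.7, 197, 86.7, 185 and 203 CPM in fibroblast-like nuclei, highest in the graft. Neither had an unadjusted p under 0.05. LAMB3, a beta chain best known from epithelium, held 241 of its 249 UMIs in the graft, where 132 were in myeloid-like, 60 in fibroblast-like and 34 in endothelial-like nuclei. Its whole-vein levels were 0, 3.37, 1.48, 3.57 and 11 CPM. At the depth of the other libraries, 3 UMIs equal 1.11 to 5.35 CPM, so a level up to that size could have been missed there. LAMA3 and LAMB3 thus did not have the same highest class in the graft, where LAMA3 was highest in endothelial-like nuclei.

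LAMC1, the gamma chain of most vascular laminins, stood at 139.8, 82.6, 169.6, 95.7 and 162 CPM in endothelial-like and 198, 208, 388, 142 and 215 CPM in fibroblast-like nuclei, with the graft inside the range of the other libraries in both. The laminin chains LAMC3, LAMA1 and LAMB4 held 30, 19 and 8 UMIs.

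**Figure D3:**
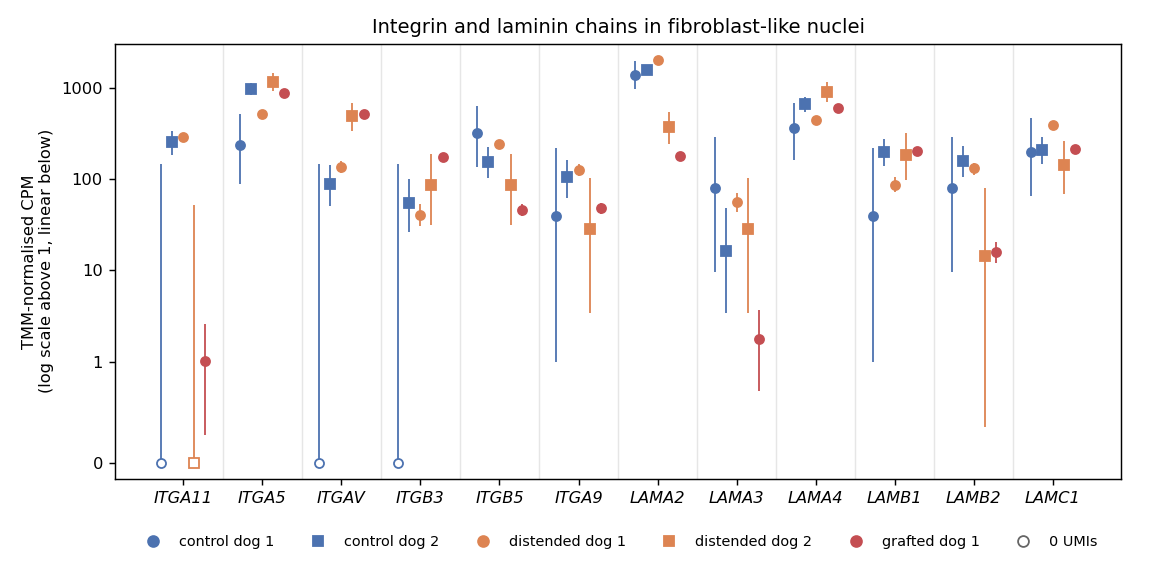
TMM-normalised CPM of 12 integrin and laminin genes in fibroblast-like nuclei of each library, on a log axis that is linear under 1, with exact 95% Poisson intervals and open symbols at 0 UMIs. ITGA11 is at 1.02 CPM in the graft and at 0 UMIs in control dog 1 and distended dog 2, where 3 UMIs equal 119 and 42.7 CPM. ITGAV places distended dog 2 beside the graft, and LAMA2 is lowest in the graft with distended dog 2 next. LAMB2 in distended dog 2 is under the level of 3 UMIs.

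In fibroblast-like nuclei, 1 of 18 features was called in grafted against control vein (ITGA11, lower; 1.9% of 7199 genes called), and 2 of 18 in grafted against distended vein (ITGA11 and LAMA3, both lower; 2.69% of genes). None was called in distended against control vein (0% of genes), with edgeR or DESeq2, and 1 had an unadjusted p under 0.05 (1.18% of genes). At that limit, 1 was higher and 4 lower in grafted against control vein (11.8% of genes), and 0 higher and 2 lower in grafted against distended vein (12.2%). Median log2 fold changes over the 18 were 0.39, 0.26 and -0.25 for distended against control, grafted against control and grafted against distended vein, against 0.16, 0.29 and 0.09 over all genes. Control dog 1 and distended dog 2 supplied 47 and 50 nuclei, and the fit used 1 common spread for all genes. Whether endothelial-like and fibroblast-like changes differed was not tested.

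**Figure D4:**
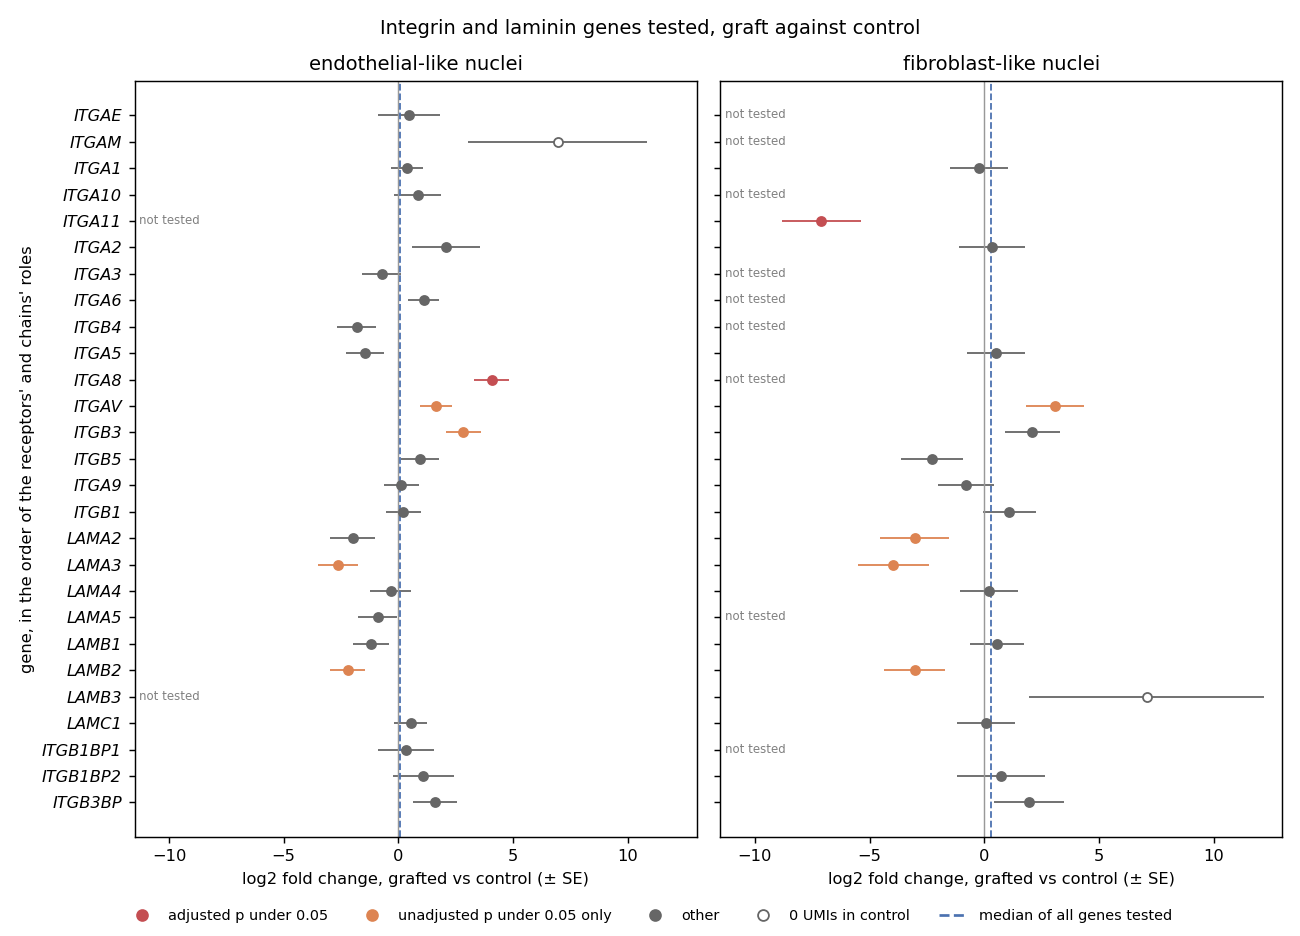
Log2 fold change (± SE) of each tested integrin and laminin feature in grafted against control vein, by edgeR, in endothelial-like (left) and fibroblast-like (right) nuclei, ordered by role. Red marks an adjusted p under 0.05, orange an unadjusted one only, open symbols 0 UMIs in control (a fitted value, not a bound), and the dashed line the median of all genes. ITGA8 (4.06) on the left and ITGA11 (-7.10) on the right are the called genes shown.

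The genes that work beside these receptors and chains were taken from 3 lists. For the integrin adhesion complex (39 genes such as talins, kindlins and tensins), 35 were tested in endothelial-like nuclei and 0 were called in any comparison by edgeR, while 3 were higher and 3 lower at an unadjusted p under 0.05 in the graft against control (17.1% of all genes). Of 32 tested in fibroblast-like nuclei, 2 were called lower in grafted against control vein (1.9% of all genes called) and 1 against distended vein (2.69%). These were LIMS2, a partner of integrin-linked kinase, at 39.7, 153, 144, 0 and 0 CPM (edgeR adjusted p 0.00168 and 0.00195), and TNS2, a tensin of focal adhesions, at 397, 667, 376, 71.1 and 10.4 CPM (adjusted p 0.0422 and 0.106). TNS2 was lowest in the graft, with distended dog 2 next. LIMS2 had 0 UMIs in both, and since 3 UMIs equal 42.7 CPM in distended dog 2, its order there against control dog 1 (1 UMI) is not set. Median log2 fold changes of the list in grafted against control vein were 0.01 in endothelial-like and 0.10 in fibroblast-like nuclei, against 0.08 and 0.29 for all genes.

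The basement membrane partners of laminin (27 genes) had 17 tested in endothelial-like and 13 in fibroblast-like nuclei, with 0 called in any comparison. At an unadjusted edgeR p under 0.05, 5 were higher and 3 lower in grafted against control endothelial-like nuclei (17.1% of all genes). In the same nuclei 4 were higher and 0 lower in distended against control vein (2.79%), namely NID2, NTN4, PXDN and COL4A1, each at an adjusted p of 1.0. NTN4 stood at 15.1, 18.4, 21.3, 188 and 131 CPM, so its rise lay mostly in distended dog 2. PXDN stood at 11.7, 21.4, 151, 58.0 and 51.3 CPM. The controls held 13 and 6 UMIs of NTN4 and 10 and 7 of PXDN. Among the genes past that limit in the graft were NID2, which links laminin to collagen IV, at 31.5, 36.7, 92.0, 145 and 226 CPM (adjusted p = 0.0807), and COL4A1, the main collagen IV chain, at 54.8, 15.3, 149, 101.5 and 259 CPM (adjusted p = 0.103). HSPG2, the perlecan core protein, was at 676, 994, 718, 316 and 199 CPM (adjusted p = 0.266). In fibroblast-like nuclei the list's median was -0.85 against control and -1.11 against distended vein, where those of all genes were 0.29 and 0.09. Among other integrin ligands (26 genes), 0 of 12 tested in endothelial-like nuclei were called by edgeR (2 higher and 2 lower at an unadjusted p under 0.05 in the graft against control, 17.1% of all genes), and 1 of 11 in fibroblast-like nuclei in each comparison with the graft (1.9% and 2.69% of all genes). TNC, a ligand of ITGA9 and ITGAV receptors, stood at 0, 0, 9.81, 14.2 and 159 CPM (edgeR adjusted p 0.0296 against control and 0.0536 against distended vein). THBS2, a matricellular protein, stood at 0, 54.7, 92.0, 0 and 2.29 CPM (adjusted p 0.1004 and 0.0334).

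The proteins named for an integrin tail are not chains. ITGB3BP, a protein also known from the centromere, stood at 28.3, 1.68, 21.1, 33.9 and 37.8 CPM in whole vein, ITGB1BP1, an inhibitor of talin binding, at 8.71, 0, 7.03, 17.8 and 16.9 CPM, and ITGB1BP2, the muscle protein melusin, at 2.18, 8.41, 4.81, 7.14 and 7.69 CPM. None had an unadjusted p under 0.05 in any comparison in which it was tested. In the graft, 265 of the 370 ITGB1BP1 UMIs lay in the unnamed cluster 14.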

How the data were processed

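Nuclei of 5 vein libraries from 2 dogs were profiled with 10x 3' chemistry (version 3.1). The deposited values are unnormalised UMI counts per feature and nucleus, made by the authors with Cell Ranger 7.0.0, per the submitters' processing notes. The genome build and the treatment of intronic reads are not given in the sources used here. The 42 feature names were matched in a RefSeq gene table, used for names only. Of these, 1 feature is not reported here and is left out of every count of features, though not of the fits.

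Of 7391 barcodes, 6855 with at least 100 genes were kept, and 2 nuclei with red cell transcripts were left out, leaving 6853. Nuclei were scaled to 10000 UMIs and clustered with scanpy 1.11.5 (2000 variable genes, 20 principal components, 15 neighbours, Leiden resolution 0.8), without the integrin and laminin features and without the 2 features above 5% of UMIs in any library. The red cell and dominant feature choices were made after the data were seen. Clusters were named from 13 marker lists. Scrublet marked 36 nuclei (0.525%) as doublets, which were kept. Features assigned to no gene (24) stayed out of library sizes and tests, and held 0.588% to 11.5% of UMIs by library.

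Raw counts were summed per library and class and tested with edgeR 4.0.16 (R 4.3.3; quasi-likelihood test, TMM scaling, filterByExpr, Benjamini-Hochberg adjustment over all genes tested, threshold 0.05), on all 3 groups in 1 fit. Each SE printed with an edgeR log2 fold change is its absolute value divided by the square root of the test's F statistic. DESeq2 1.42.0 was an alternative. The code was tested on simulated data. Poisson intervals (95%) and floors of 3 UMIs cover counting error only. The title of each library gives its dog number, by which libraries were paired in the alternative with the dog as a block. The main tests used the group only and did not pair libraries by dog. The pairing rests on the titles alone, and whether numbers or libraries were exchanged was not tested. The correlation of the dog difference between control and distended vein, across genes, was -0.28 in whole vein, 0.00 in endothelial-like (0.000856) and 0.02 in fibroblast-like sums.

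Every reported feature with at least 100 UMIs is given with its value in every library, and a fold change is printed where the unadjusted p was under 0.05. The members and the gene lists were chosen with earlier results of these data known. Replicates are 2 dogs in control and distended vein and 1 in the graft.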

Additional observations from a re-analysis of the deposited data

Results flagged for a closer look

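LAMB1 and ITGB5 had fitted changes of opposite sign in the classes. In grafted against control vein the edgeR log2 fold change of LAMB1 was -1.20 in endothelial-like and 0.56 in fibroblast-like nuclei, and in grafted against distended vein it was -0.71 and 0.65 (-0.7125 and 0.645). For ITGB5 the values were 0.93 and -2.28 against control and 0.63 and -1.90 against distended vein. In each case the graft lay outside both libraries it was compared with, on opposite sides in the 2 classes. For LAMB1 in fibroblast-like nuclei, however, the side is not set. There the graft stood at 203 CPM, within 1 SD of the control (118 ± 111) and distended (136 ± 69.4) means (SD, n = 2 each). Control dog 1 lay under its floor of 119 CPM. The medians of all genes in these fibroblast-like comparisons were 0.29 against control and 0.09 against distended vein. The difference between classes was not tested, there was 1 graft, and none of these changes was called in either class.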

How the results depend on the processing

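Over 29 log2 fold changes, alternatives gave 378 values with the same direction and side of the threshold, 21 that passed it newly, 16 that no longer passed it and 3 of the opposite sign. These 3 were all of ITGA11: 4.03 in whole vein, grafted against distended, without distended dog 1, and in fibroblast-like nuclei 3.58 against control without control dog 2 and 3.25 against distended vein without distended dog 1. The medians of all genes in those fits were 0.08, 6.51 and 0.22, and the library left for comparison had 0 ITGA11 UMIs, so no direction follows. Leaving out 1 library at a time, those 3 values ranged from -8.72 to 4.03, from -7.75 to 3.58 and from -8.00 to 3.25. The number of integrin and laminin features called moved as follows, with the share of all genes called in brackets, and the cause was not tested. In whole vein it went from 0 to 1 against control (1.05%) and to 2 against distended vein (0.561%) with no filter on low counts. With at least 200 genes per nucleus, endothelial-like calls went from 1 to 0 in both graft comparisons (0.178% and 0%). Against control they went to 2 with no filter (3.19%), with the dominant features (7.55%) or the red cell nuclei (4.82%) kept in the clustering, ITGB3 being added each time, and with the dog as replicate block (6.09%). In fibroblast-like nuclei, grafted against control went from 1 to 0 with DESeq2 (0.228%), with no filter (0.105%) and with the dog as replicate block (0%). Grafted against distended went from 2 to 0 with DESeq2 (0.105%) and with the dog as replicate block (2.35%), to 4 with no filter (5.87%), and to 1 both without the dominant features in the sums (1.31%) and with the members kept in the clustering (2.16%). Leaving out 1 library at a time gave 0 to 1, 0 to 3 and 0 to 3 calls in whole vein for distended against control, grafted against control and grafted against distended (0% to 1.67%, 5.35% and 5.46%). The same ranges for both graft comparisons were 0 to 3 and 0 to 1 in endothelial-like nuclei (0% to 7.75% and 3.39%), and 0 to 2 and 0 to 7 in fibroblast-like nuclei (0.0304% to 6.06% and 0.0408% to 22.8%, the 7 and the 22.8% both without distended dog 2). With the dog as replicate block the added call in endothelial-like nuclei was LAMA3, at -3.11, and no other call changed beyond those named. With the distended dog numbers crossed as the block, whole-vein calls over all genes were 6, 174 and 33 instead of 0, and 1 of them was ITGA8 in grafted against distended vein. Without control dog 2 the median of all genes in fibroblast-like nuclei also rose to 5.93 in distended against control vein. With DESeq2 the median of all genes shifted by 0.43 and 0.31 in the graft comparisons of fibroblast-like nuclei and by 0.12 in grafted against control endothelial-like nuclei. Depth limits low values, with 3 UMIs equal to 119 CPM in fibroblast-like nuclei of control dog 1 and 42.7 CPM in those of distended dog 2.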
